A study of Rattus norvegicus with 6 samples.

Results

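The genes described here encode the heat shock proteins, the DnaJ co-chaperones and the heat shock factors of the rat. They were chosen by symbol: a probe set was taken when the platform annotation paired it with exactly 1 symbol and that symbol began with Hspa, Hspb, Hspd, Hspe, Hsph, Hsp90, Dnaj or Hsf and a digit. By this rule 77 probe sets of 68 genes were found among 15310 probe sets of 14506 genes. Where a gene had several probe sets, the brightest on average across the 6 arrays stood for it. Of the 68 genes, 39 were DnaJ genes and 29 were heat shock protein or factor genes. The annotation paired 1 further probe set with several Hspa1 symbols, so the inducible HSP70 genes Hspa1a and Hspa1b were not analysed here.

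Primary ventricular cardiomyocytes of 2-day-old Sprague-Dawley rats, with no engineered allele, were cultured for 24 h in control serum-free medium (n = 3) or in medium with hCT1, the recombinant human protein cardiotrophin 1, at 0.5 nM (n = 3). The comparison asked what hCT1 does to gene expression in these cells, and each RNA sample was hybridised to 1 Affymetrix whole-transcript rat array. The growth protocol recorded for all 6 samples mentions a hypertrophic agonist, while their treatment protocol names serum-free medium alone for the controls. RNA was isolated in triplicate, and no source used here says that the triplicates came from different cultures. The p-values therefore rest on a spread between samples that may be technical. The human protein acted on rat cells in this model, and a primary culture can hold other heart cells. The number of arrays limits the precision of every value. Values are log2 RMA values, on which a difference of 1 is a doubling, and a gene is said to have passed when limma gave an adjusted p under 0.05. Pearson's r over all probe sets was 0.997 to 0.998 within a group and 0.994 to 0.996 between groups. All 9 cardiomyocyte markers examined lay at or above percentile 75.3 of signal, as did some markers of other cell types, since those of fibroblasts ranged from percentile 48.1 to 99.5.

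Chaperones of the HSP70 family bind unfolded stretches of client proteins and release them in cycles of ATP binding and hydrolysis. A DnaJ protein brings the client and stimulates hydrolysis through its J domain, an exchange factor resets the cycle, and HSP90 and the chaperonins take over clients that need further folding. The small heat shock proteins hold unfolding proteins without ATP and are abundant in muscle, where some of them bind the contractile filaments. Heat shock factor 1 switches on many of these genes by binding heat shock elements, which are inverted repeats of a short unit, and unfolded protein in the endoplasmic reticulum (ER) acts through a separate ER stress response element. hCT1 signals through the gp130 receptor and the factor STAT3.

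Promoter sequences are shown first because they carry the elements through which such genes are known to be switched on together. RefSeq (build GRCr8) gave the 250 bases before the start of 54 of the 68 genes. The first pair, Hspa8 (chr8:50080264-50080513, plus strand) and Hsph1 (chr12:10427118-10427367, plus strand), is shown because it holds the heat shock element of 3 units, GAANNTTCNNGAA, which is in capitals.
Hspa8: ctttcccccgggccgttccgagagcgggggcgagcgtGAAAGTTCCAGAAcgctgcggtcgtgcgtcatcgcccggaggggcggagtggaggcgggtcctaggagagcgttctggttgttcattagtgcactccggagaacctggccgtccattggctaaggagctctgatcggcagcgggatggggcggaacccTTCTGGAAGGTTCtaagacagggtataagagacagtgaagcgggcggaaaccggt
Hsph1: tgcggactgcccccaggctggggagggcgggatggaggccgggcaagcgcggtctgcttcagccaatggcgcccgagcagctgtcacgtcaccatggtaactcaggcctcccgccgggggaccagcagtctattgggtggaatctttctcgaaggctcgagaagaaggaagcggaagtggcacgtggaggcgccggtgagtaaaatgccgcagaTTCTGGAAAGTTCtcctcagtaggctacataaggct
The next pair shows the small heat shock protein gene that rose and the one that fell most. Capitals mark the shorter element of 2 units, GAANNTTC, in Hspb1 (chr12:26432302-26432551, minus strand). No match was in the window of Hspb3 (chr2:47029166-47029415, minus strand).
Hspb1: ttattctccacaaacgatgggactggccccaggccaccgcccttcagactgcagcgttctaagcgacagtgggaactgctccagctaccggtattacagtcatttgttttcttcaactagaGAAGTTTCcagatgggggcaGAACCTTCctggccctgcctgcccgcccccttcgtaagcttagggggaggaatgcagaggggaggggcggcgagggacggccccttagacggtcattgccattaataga
Hspb3: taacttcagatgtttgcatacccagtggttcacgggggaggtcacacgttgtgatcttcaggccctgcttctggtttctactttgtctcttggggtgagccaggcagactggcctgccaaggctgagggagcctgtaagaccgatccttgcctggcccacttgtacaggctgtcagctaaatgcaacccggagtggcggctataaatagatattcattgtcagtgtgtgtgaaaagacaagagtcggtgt
Hspa5 (chr3:38452766-38453015, plus strand) is shown for its ER stress response element, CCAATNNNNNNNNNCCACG, in capitals.
Hspa5: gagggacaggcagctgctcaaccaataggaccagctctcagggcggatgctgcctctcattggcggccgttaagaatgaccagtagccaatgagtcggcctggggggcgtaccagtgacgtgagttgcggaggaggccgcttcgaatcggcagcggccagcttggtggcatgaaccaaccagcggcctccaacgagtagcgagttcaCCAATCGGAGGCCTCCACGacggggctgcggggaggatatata

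Both strands were searched and N stands for any base. The element of 2 units reads the same on both strands, and the other order of its units, TTC before GAA, was not searched by itself. The element of 3 units was in 4 of the 54 windows (7.41%) and in 0.663% of the 33469 promoters of the RefSeq table. Its holders were Hspa8, Hsph1, Hspd1 and Hspe1. Hspd1 and Hspe1 start 290 bases apart on opposite strands and their windows share 211 bases, so the match in these windows is the same stretch. None of the 4 genes passed the test, and their log2 differences between hCT1 and control ran from -0.14 to 0.23. The element of 2 units, which is contained in that of 3 units, was in 13 windows (24.1%) against 7.23% of all promoters. Among the 13 genes Hspb1 rose, the others did not pass, and the median log2 difference was 0.04. The ER element was in Hspa5, Hsp90b1 and Dnajc3 (5.56% against 0.0657% of all promoters), and their differences lay between -0.02 and 0.05. The STAT element TTCNNNGAA was in 0 of the 54 windows and in 7.67% of all promoters, which says only that these letters are not in these windows. The windows of Dnajb11 and Hspb3 held none of the elements searched, and a match is a description of letters, not of a bound factor.

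Across the 68 genes, 10 passed the test between hCT1-treated and control cardiomyocytes (14.7%), and the share over all 14506 genes was also 14.7%. The genes that rose were 6 of 68 (8.82%), where 5.09% of all genes rose, and those that fell were 4 of 68 (5.88%), where 9.58% of all genes fell. The heat shock genes as a whole therefore passed at the background rate. Their median log2 difference was -0.001, that of all genes was -0.00048, and the differences ran from -0.67 (Hspb3) to 0.42 (Dnajb11). The difference lay within 0.1 of 0 for 39 genes (57.4%), as it did for 50.1% of all genes. The groups did not overlap in 19 of the 68 genes, or 27.9%, against 34.2% of all genes. For 67 of the 68 genes the 95% interval of the difference stayed inside 1.5-fold in either direction, as it did for 13957 of all 14506 genes. Among the 68 genes Hspb3 was the exception. The count of genes that rose was 3 when control replicate 1 or either of hCT1 replicates 1 and 2 was left out, and 9 without control replicate 3. With 3 samples a group, the smallest two-sided p of an exact permutation test is 0.1.

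**Figure D1:**
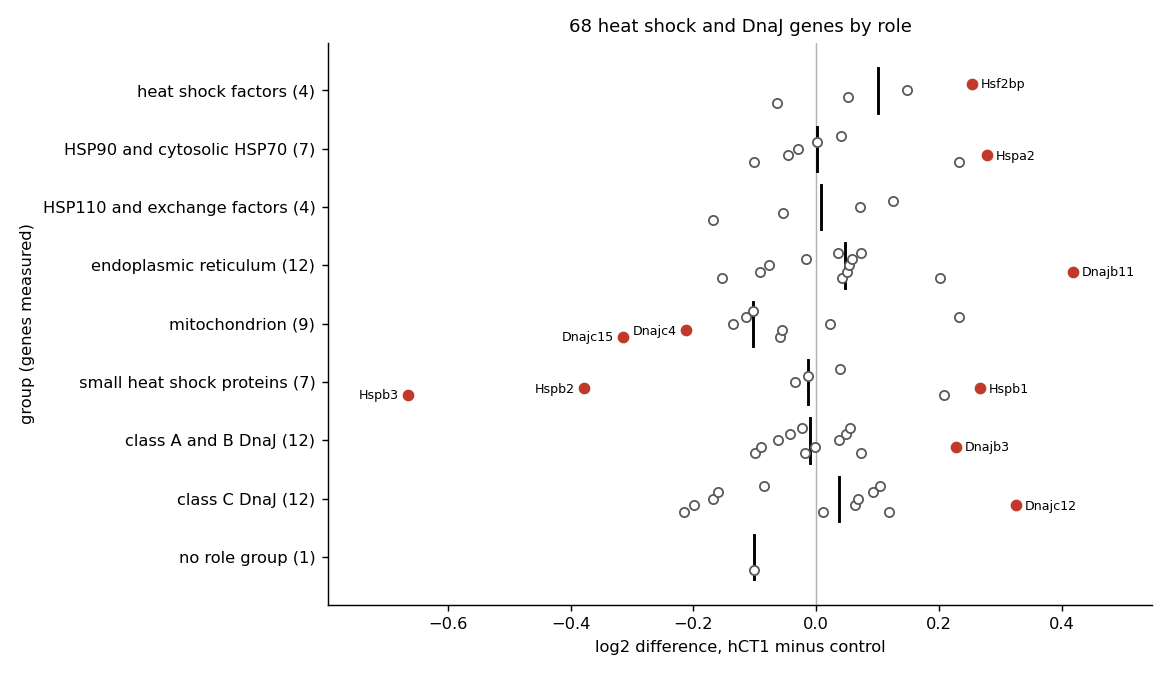
Each point is 1 of the 68 genes, placed by its log2 difference between hCT1 and control (horizontal axis) in the row of its role, with the number of genes in parentheses. Red points passed the limma test and carry their symbols, open points did not, and black bars are the medians of the rows. Passing genes stand in 7 of the rows, and most of the other genes lie near 0.

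Among the heat shock factors and their partners, 1 of 4 genes rose (25%, against 5.09% of all genes). Hsf1, the factor that drives the response to heat, had log2 values of 8.09, 8.01 and 7.93 in control replicates 1 to 3 and of 7.87, 7.97 and 8.00 with hCT1. The groups overlapped, the difference was -0.06 and its 95% interval ran from -0.21 to 0.08 (adjusted p = 0.548 by limma). Hsf2, a related factor, differed by 0.05 (adjusted p = 0.701 by limma), and Hsf4, known from the lens, by 0.15 (adjusted p = 0.448 by limma). Hsf2bp, whose product binds HSF2 and acts with BRCA2 in meiosis, had values of 5.27, 5.24 and 5.29 in controls and of 5.46, 5.61 and 5.49 with hCT1. All hCT1 samples of Hsf2bp lay above all controls, a rise of 1.19-fold (log2 difference 0.25, SE 0.06, adjusted p = 0.0227 by limma). Its mean signal was at percentile 38 of all genes, in the dim range, where array values can be background. It did not pass when one of control replicates 1 and 2 or of hCT1 replicates 2 and 3 was left out, which left no factor gene that rose.

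Of the 7 HSP90 and cytosolic HSP70 genes, 1 rose (14.3%, against 5.09% of all genes) and 4 differed by less than 0.1. Hsp90aa1, which encodes the stress-responsive form of cytosolic HSP90, had values of 10.57, 10.56 and 10.71 in controls and of 10.51, 10.70 and 10.54 with hCT1. Its groups overlapped through hCT1 replicate 2, with the other hCT1 samples below all controls, and the 95% interval of the difference of -0.03 was -0.19 to 0.13. Hsp90ab1, the constitutive form, gave 11.49, 11.52 and 11.59 in controls and 11.58, 11.54 and 11.48 with hCT1. The difference of Hsp90ab1 was 0.0007, with an interval of -0.13 to 0.13. Hspa8, the constitutive HSP70 of the cytosol, had values of 12.20, 12.20 and 12.28 in controls and of 12.27, 12.30 and 12.23 with hCT1. The groups overlapped, and the difference was 0.04 (-0.08 to 0.16). Hspa8 has 8 probe sets on the array, which may share signal, and none of them passed (differences of 0.04 to 0.06).

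Hspa2, an HSP70 best known from the testis, was the member of this group that rose. Its values were 5.94, 6.07 and 5.89 in controls and 6.29, 6.21 and 6.23 with hCT1. The hCT1 samples all lay above the controls, by 1.21-fold in the mean (log2 difference 0.28, SE 0.065, adjusted p = 0.021 by limma), at percentile 44.7 of signal. When control replicate 1 or one of hCT1 replicates 1 and 3 was left out it did not pass and no gene of the group rose, and without control replicate 3 there were 2. The second largest difference was that of Hspa14, a ribosome-associated HSP70, at 0.23 (adjusted p = 0.0984 by limma), whose groups overlapped. Hspa14 was the other gene that passed without control replicate 3, and it also passed with array weights.

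At an unadjusted p under 0.05, limma called 1735 of all 14506 genes higher and 2592 lower. Of the 4 genes of HSP110 proteins and exchange factors, which reset the HSP70 cycle, the one-way test called 0 after adjustment. By limma 0 passed at the adjusted threshold and 1 was lower at an unadjusted p under 0.05. That gene was Hspbp1, an exchange factor of cytosolic HSP70, at 8.06, 8.01 and 7.92 in controls and 7.85, 7.80 and 7.84 with hCT1. The groups of Hspbp1 did not overlap, but the difference of -0.17 did not pass (adjusted p = 0.0871 by limma). It passed, as the 1 gene of the group that fell, with array weights, with a filter at the 40th percentile of signal and without control replicate 3. Hspa4, an HSP110 protein, differed by 0.13 (adjusted p = 0.241 by limma) and the heat-inducible Hsph1 by 0.07 (adjusted p = 0.543 by limma).

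**Figure D2:**
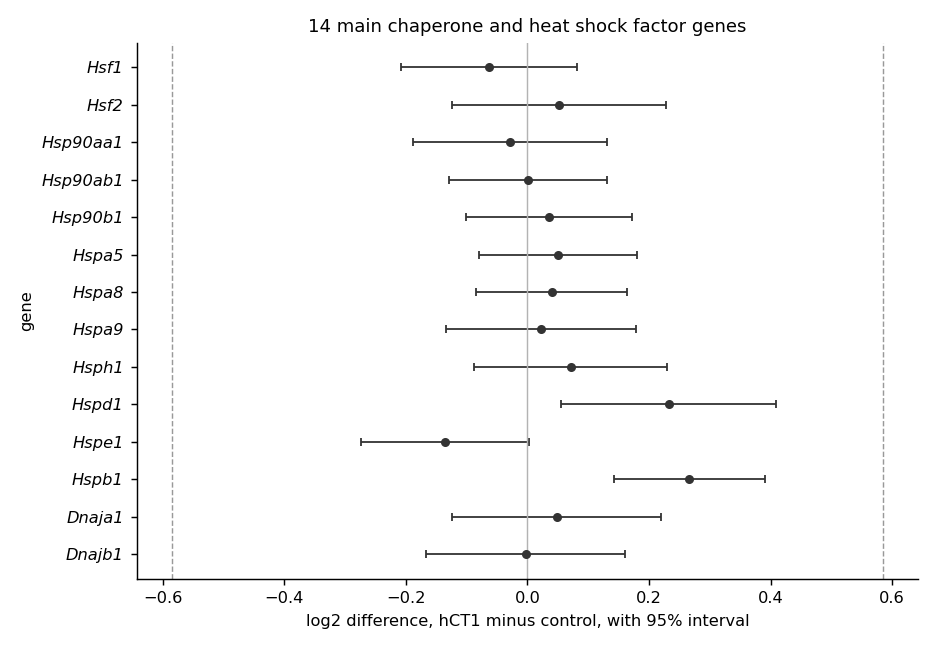
The log2 difference between hCT1 and control (horizontal axis, points) is given with its 95% interval (bars) for the 14 main chaperone and heat shock factor genes that were measured. Dashed lines mark 1.5-fold in either direction, and the intervals of the 13 genes that did not pass, Hspb1 being the exception, lie between -0.27 and 0.41.

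In the ER, 1 of 12 genes rose (8.33%, against 5.09% of all genes), and it was Dnajb11. Its product, also called ERdj3, is a DnaJ protein of the ER lumen that brings unfolded clients to BiP, the HSP70 of the ER. Dnajb11 had values of 9.35, 9.42 and 9.54 in controls and of 9.90, 9.90 and 9.76 with hCT1. Every hCT1 sample lay above every control, and the rise of 1.34-fold was the largest among the 68 genes (log2 difference 0.42, SE 0.07, adjusted p = 0.00502 by limma). Hspa5, which encodes BiP itself, had values of 12.02, 12.04 and 12.09 in controls and of 12.16, 12.12 and 12.03 with hCT1. Its groups overlapped, with a difference of 0.05 (-0.08 to 0.18). Within each sample, the log2 ratio of Dnajb11 to Hspa5 signal was -2.61 ± 0.0649 in controls and -2.25 ± 0.0305 with hCT1 (SD, n = 3 each). The ratios did not overlap between groups, a shift of 0.37 with a two-sided exact permutation p = 0.1, the smallest that 3 against 3 can give, and 0.1 after adjustment over the 3 pairs of genes so compared. The pairs were chosen after their values were seen, and the levels of different probe sets cannot be set against each other, so the shift alone is the measurement.

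The other large ER chaperone, Hsp90b1 (GRP94), differed by 0.04 (-0.10 to 0.17), and Dnajc3, a co-chaperone of BiP, by -0.02. Hspa13, an HSP70 attached to microsomes, had the second largest difference of the group at 0.20 (adjusted p = 0.205 by limma), and its groups overlapped. Hspa13 passed with array weights. Without control replicate 3, 2 ER genes rose, Hspa13 being the second, and Dnajc14, an ER membrane DnaJ, was the 1 that fell.

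Mitochondrial genes were the group with the lowest median, -0.10, and 2 of 9 fell (22.2%, against 9.58% of all genes). Dnajc15, a DnaJ protein of the inner mitochondrial membrane, had values of 7.57, 7.52 and 7.66 in controls and of 7.27, 7.24 and 7.29 with hCT1. All hCT1 samples were below all controls, a fall of 1.24-fold (log2 difference -0.32, SE 0.058, adjusted p = 0.00802 by limma). Dnajc4, one of the less studied DnaJ genes, had values of 8.84, 8.88 and 8.72 in controls and of 8.58, 8.61 and 8.61 with hCT1. It fell by 0.21 on the log2 scale (SE 0.06, adjusted p = 0.0438 by limma) without overlap. Dnajc4 did not pass when control replicate 1 or 2 or any of the 3 hCT1 samples was left out, so that 1 of the 9 mitochondrial genes (Dnajc15) fell in each of those fits. It also did not pass after another quantile normalization or after centring on the array median.

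The chaperonin of the mitochondrial matrix is built of HSP60, from Hspd1, and its lid HSP10, from Hspe1. Hspd1 had values of 10.13, 10.19 and 10.37 in controls and of 10.51, 10.52 and 10.36 with hCT1. Hspe1 had values of 10.17, 10.08 and 10.15 in controls and of 9.92, 10.07 and 10.01 with hCT1. The Hspd1 groups overlapped through control replicate 3 and hCT1 replicate 3, while the Hspe1 groups lay apart with hCT1 below. Neither gene passed: the difference was 0.23 for Hspd1 (0.06 to 0.41, adjusted p = 0.0792 by limma) and -0.14 for Hspe1 (-0.27 to 0.002, adjusted p = 0.172 by limma). Hspd1 passed, as the 1 mitochondrial gene that rose, without control replicate 3, with array weights, with trend and robust fitting and above the 40th percentile of signal. The second Hspd1 probe set differed by 0.28 and did not pass either. These neighbouring genes start from 1 shared stretch of sequence. The log2 ratio of Hspd1 to Hspe1 moved from 0.0969 ± 0.132 in controls to 0.465 ± 0.124 with hCT1 (SD, n = 3 each), with no overlap (two-sided exact permutation p = 0.1). That p is the smallest that 3 against 3 can give, and the pair was chosen after its values were seen. Hspa9, the HSP70 of the matrix, differed by 0.02 (adjusted p = 0.86 by limma).

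The small heat shock proteins with an Hspb symbol moved in both directions. Of 7 genes, 1 rose (14.3%, against 5.09% of all genes) and 2 fell (28.6%, against 9.58%). These counts did not move by more than 1.5 times without any 1 of the 6 samples. Cryab (-0.08), Cryaa (0.06) and Odf1 (-0.07), small heat shock genes that the symbol rule leaves out, did not pass. Hspb3, a muscle protein that assembles with HSPB2, had values of 8.44, 8.47 and 8.58 in controls and of 7.82, 7.88 and 7.78 with hCT1. Between the lowest control and the highest hCT1 sample lay a gap of 0.56. The fall of 1.59-fold was the largest of all 68 genes (log2 difference -0.67, SE 0.061, 95% interval -0.80 to -0.53, adjusted p = 0.000181 by limma). Hspb2, which is known to bind the myotonic dystrophy protein kinase, had values of 10.35, 10.40 and 10.20 in controls and of 9.93, 9.90 and 9.98 with hCT1. It fell 1.3-fold without overlap (log2 difference -0.38, SE 0.066, adjusted p = 0.00604 by limma).

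Hspb1, known as HSP27 and as a protector of actin filaments, went the other way. Its values were 11.32, 11.31 and 11.23 in controls and 11.56, 11.52 and 11.59 with hCT1. All hCT1 samples were above the controls, a rise of 1.2-fold (log2 difference 0.27, SE 0.055, adjusted p = 0.0132 by limma). Hspb6, known as HSP20, gave 10.81, 10.85 and 10.64 in controls and 10.95, 11.03 and 10.95 with hCT1. The groups lay apart, but the difference of 0.21 did not pass (0.05 to 0.36, adjusted p = 0.074 by limma). Hspb6 passed with trend and robust fitting and above the 40th percentile of signal. Hspb7, a small heat shock protein of heart muscle, differed by -0.04 (-0.17 to 0.10) and Hspb8, which acts with BAG3 in selective autophagy, by 0.04 (-0.08 to 0.16). Hspb6, Hspb7, Hspb8 and the dim Hspb9 (-0.01) were named after their values were seen.

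**Figure D3:**
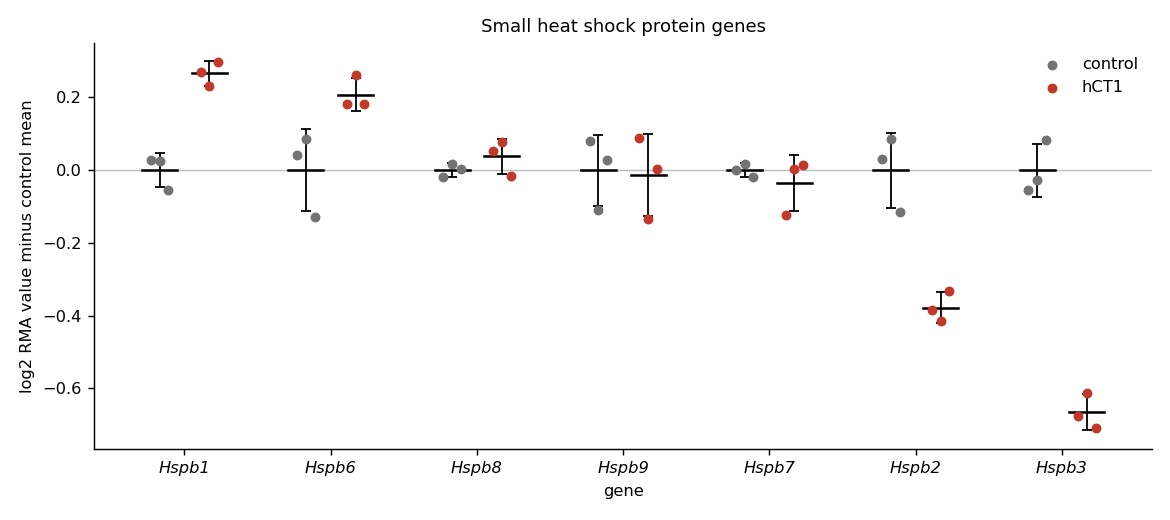
The vertical axis is the log2 RMA value minus the control mean of the gene, with controls in grey (n = 3) and hCT1 in red (n = 3), for the 7 small heat shock protein genes. Lines are means and error bars the SD. The hCT1 mean of Hspb3 lies 0.67 and that of Hspb2 0.38 below the control mean, while that of Hspb1 lies 0.27 above it.

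Hspb2 stands beside Cryab, the gene of αB-crystallin, in the genome. Cryab did not pass (difference -0.08, adjusted p = 0.382 by limma). The log2 ratio of Hspb2 to Cryab within a sample was -1.75 ± 0.129 in controls and -2.05 ± 0.0787 with hCT1 (SD, n = 3 each), a shift of -0.30 without overlap (two-sided exact permutation p = 0.1). This pair too was chosen after its values were seen, and its p is the smallest that 3 against 3 can give. Some other muscle genes were lower in the same samples. Of 9 cardiomyocyte markers, 3 fell (33.3%, against 9.58% of all genes). The falls were 0.48 for Myl2, 0.45 for Myh6 and 0.22 for Myom1 on the log2 scale. The other 6 did not pass, and the median difference of the 9 was -0.11. Myh7 (0.01) and Tnnt2 (0.03) were the 2 markers with a positive difference. Myom1 did not pass when any 1 of the 6 samples was left out. The summed linear signal of the 9 markers was 22716.6 to 22926.4 in controls and 20782.6 to 21878.4 with hCT1, a lower range without overlap. The part of these muscle genes in the falls of Hspb2 and Hspb3 was not tested, and in a culture measured in bulk, fewer cells of a type and less RNA per cell cannot be told apart. For the other cell types the sums of linear signal were 8672.43 to 9173.32 against 8249.12 to 8444.17 for 8 fibroblast markers, of which 0 passed by limma. At an unadjusted p under 0.05, 1 of the 8 was higher and 2 were lower, against 1735 and 2592 of all 14506 genes. The 7 leukocyte markers summed to 474.152 to 509.646 in controls and to 375.165 to 433.273 with hCT1. Of the 7, 1 fell (14.3%, against 9.58% of all genes), and it was Lyz2. Of 5 smooth muscle markers Myh11 and Tagln fell (40%, against 9.58% of all genes). Acta2 (0.008), Rgs5 (0.02) and Cnn1 (0.11) had positive differences and did not pass. Of 6 endothelial markers Emcn fell (16.7%). Cdh5 (-0.03) and Pecam1 (-0.02) lay near 0, Egfl7 (0.12), Tie1 (0.13) and Tek (0.17) had positive differences, and none of these passed. Of 2 red blood cell markers 0 passed, adjusted or not. Emcn did not pass, which left no endothelial marker that fell, when one of control replicates 2 and 3 or of hCT1 replicates 1 and 2 was left out. The sums were 9248.91 to 9591.02 in controls and 8805.28 to 9020.63 with hCT1 for the smooth muscle markers, and 940.189 to 1071.64 against 962.269 to 988.434 for the endothelial markers. The red blood cell sums were 49.1518 to 64.1105 and 52.6358 to 57.3377. The fibroblast, smooth muscle and leukocyte sums were thus also lower with hCT1 without overlap, while the endothelial and red blood cell sums overlapped. A linear sum follows its brightest genes and does not describe every marker of a type. Over all genes the median log2 value was also lower with hCT1, at 6.55 to 6.56 against 6.61 to 6.68 in controls. The part of this offset in the sums was not tested. The median log2 difference was 0.008 for the smooth muscle, -0.06 for the fibroblast, -0.17 for the leukocyte and 0.05 for the endothelial markers.

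The class A and B DnaJ proteins of the cytosol and nucleus include the general partners of HSP70. Of their 12 genes, 11 differed by less than 0.1, where 50.1% of all genes did. The signal of 3 of the 12 was below percentile 40, in the dim range, where array values can be background. Dnajb1, the main HSP40 of the heat response, gave 8.20, 8.25 and 8.34 in controls and 8.36, 8.29 and 8.13 with hCT1. The groups of Dnajb1 overlapped at a difference of -0.003 (adjusted p = 0.984 by limma). Dnaja1, a farnesylated partner of Hspa8, differed by 0.05 (adjusted p = 0.718 by limma) and Dnaja4 by -0.10 (adjusted p = 0.47 by limma). The 1 gene that rose (8.33%, against 5.09% of all genes) was Dnajb3, best known from the testis. It gave 6.82, 6.85 and 6.78 in controls and 7.09, 7.06 and 6.98 with hCT1. Its groups lay apart at 1.17-fold (log2 difference 0.23, SE 0.056, adjusted p = 0.0262 by limma). It did not pass, and no gene of these classes rose, once control replicate 1 or 2 or hCT1 replicate 1 or 2 was omitted.

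Class C, the DnaJ proteins with specialised tasks, held 1 of 12 genes that rose (8.33%, against 5.09% of all genes). Dnajc12, a co-chaperone of the aromatic amino acid hydroxylases, had values of 7.67, 7.65 and 7.61 in controls and of 8.03, 8.05 and 7.83 with hCT1. The groups did not overlap, and the rise was 1.25-fold (log2 difference 0.33, SE 0.07, adjusted p = 0.0155 by limma). It did not pass, and 0 class C genes rose by limma, without hCT1 replicate 1 or without hCT1 replicate 2. At an unadjusted p under 0.05, 1735 of all 14506 genes were higher and 2592 lower in the full comparison. Of the 12 class C genes, 1 was higher and 3 were lower at that threshold. Those 3 were Dnajc7, which links HSP70 and HSP90, Dnajc9, which also binds histones, and Dnajc2, which works at the ribosome. Dnajc7 had values of 8.69, 8.58 and 8.73 in controls and of 8.44, 8.55 and 8.36 with hCT1. The hCT1 samples of Dnajc7 were all lower, but the difference of -0.21 did not pass (adjusted p = 0.068 by limma). The differences were -0.20 for Dnajc9 (adjusted p = 0.0669 by limma) and -0.17 for Dnajc2 (adjusted p = 0.112 by limma), both named after their values were seen. Dnajc7 and Dnajc9 passed with trend and robust fitting and above the 40th percentile of signal. Outside these roles, Hspbap1, a partner of HSPB1, differed by -0.10 (adjusted p = 0.302 by limma).

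**Figure D4:**
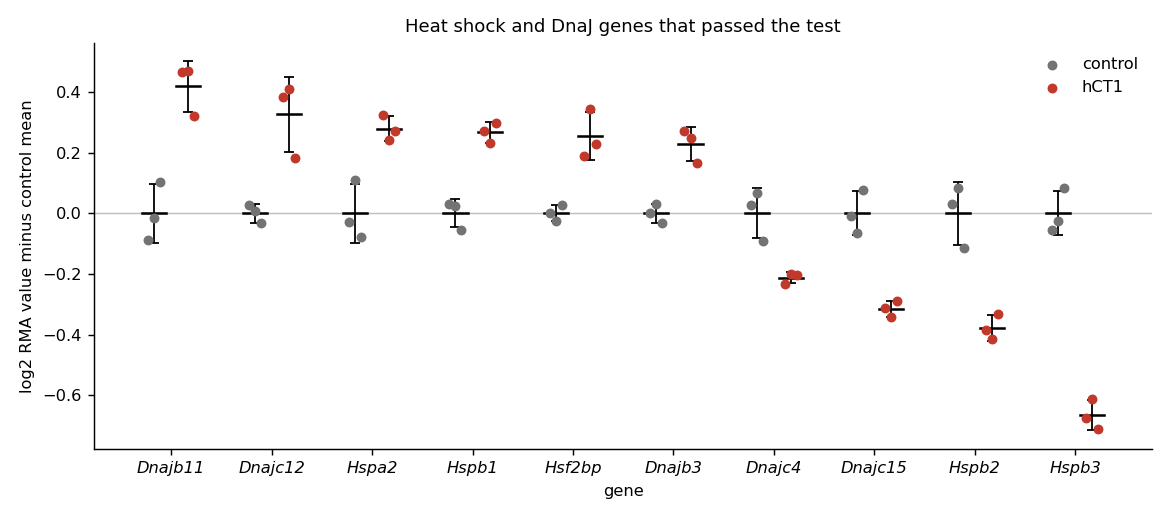
The 10 genes that passed the test are plotted as log2 RMA value minus the control mean of the gene (vertical axis), with controls in grey (n = 3) and hCT1 in red (n = 3). Lines are means and error bars the SD. In all 10 genes the points of the groups are separate, with hCT1 above for 6 genes and below for 4. Selection by a test on these same values favours such separation, and the groups did not overlap in 34.2% of all genes.

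Partners of these chaperones were read from 6 lists of other genes, of which 100 of 114 were measured. In these lists 4 genes rose and 13 fell, with a median difference of -0.06. These are 4% and 13% of the 100 genes, near the 5.09% that rose and the 9.58% that fell among all genes, so the counts are not a result about the lists. The cofactors of HSP90 and HSP70 gave 1 rise in 23 genes (4.35%, against 5.09% of all genes). It was that of Sugt1, an HSP90 cofactor of kinetochore assembly (log2 difference 0.31). Without control replicate 3, 1 cofactor also fell. In the cytosolic chaperonin and prefoldin list 3 of 14 genes fell (21.4%, against 9.58% of all genes). All 3 were subunits of prefoldin, which hands unfolded actin and tubulin to the chaperonin. Pfdn2, another prefoldin subunit, differed by -0.14 with overlapping groups and did not pass (adjusted p = 0.283 by limma). The falls were 0.30 for Pfdn5, 0.28 for Pfdn1 and 0.26 for Pfdn6 on the log2 scale. Pfdn5 and Pfdn6 did not pass after another quantile normalization. Of the 14 genes 1 fell without control replicate 1 or without any one hCT1 sample, and 1 rose without control replicate 3.

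ER folding and stress genes gave 1 rise and 5 falls in 29 genes (3.45% and 17.2%, against 5.09% and 9.58% of all genes). The gene that rose was Sec63, a J-domain protein of the ER translocon (log2 difference 0.29). Ddit3, the transcription factor CHOP of the ER stress response, fell from 8.24, 8.36 and 8.37 in controls to 7.90, 7.85 and 7.74 with hCT1. The groups were separate, with a log2 difference of -0.50 (adjusted p = 0.00148 by limma). Trib3, a pseudokinase induced by CHOP, fell by 0.47, and Selenos and Herpud1, both of ER-associated degradation, fell by 0.41 and 0.29. Sdf2l1, which forms a complex with ERdj3, the product of Dnajb11, fell by 0.23 on the log2 scale, where Dnajb11 itself rose. Sdf2l1 did not pass after another quantile normalization or when any sample other than control replicate 3 was left out. With control replicate 1 or one of hCT1 replicates 2 and 3 omitted, 3 genes of the list fell.

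In the list of mitochondrial protein quality control, Grpel1, the exchange factor of the matrix HSP70, fell by 0.30 and Hscb, a J-domain protein of iron-sulphur cluster assembly, by 0.21 on the log2 scale. Yme1l1, a protease of the inner membrane, rose by 0.22, and the median of the 15 genes was -0.10, as for the mitochondrial chaperones. Falls were 13.3% and rises 6.67% of the 15 genes, against 9.58% and 5.09% of all genes. Grpel1 and Hscb did not pass after another quantile normalization. The rise of Yme1l1 was not called when any sample other than control replicate 3 was left out. The list had 0 falls by limma with control replicate 1 or one of hCT1 replicates 1 and 3 omitted, and 1 with replicate 2 of either group omitted. In the full comparison 1 gene of the list was higher and 6 were lower at an unadjusted p under 0.05. Of all 14506 genes, 1735 were higher and 2592 lower at that threshold. The one-way test called 0 genes of the list after adjustment.

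Among 13 genes of chaperone-assisted autophagy and degradation, 3 fell (23.1%, against 9.58% of all genes) and 1 rose (7.69%, against 5.09%). The ubiquitin ligases of muscle wasting were 2 of them: Fbxo32 fell by 0.49 and Trim63 by 0.45 on the log2 scale, and Ubqln2, a shuttle to the proteasome, fell by 0.26. Ubqln2 did not pass after another quantile normalization or when any sample other than control replicate 3 was left out. Hdac6, a deacetylase that carries ubiquitinated aggregates, rose by 0.29, and 2 genes of the list rose without control replicate 3. Of 6 other stress chaperones, 0 passed by limma, 0 had an unadjusted p under 0.05, and 2 were lower in the one-way test without adjustment. That one-way test had 2274 of all 14506 genes lower. The largest differences there were 0.11 for the extracellular chaperone Clu and -0.10 for the collagen chaperone Serpinh1.

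**Figure D5:**
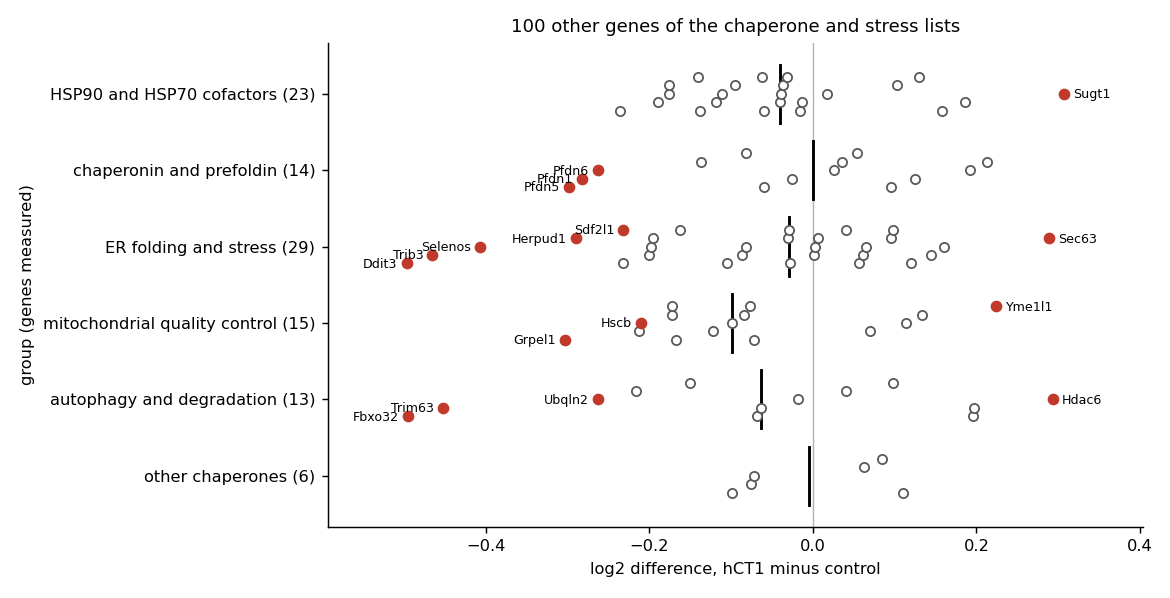
Each point is 1 of 100 genes of the other chaperone and stress lists, placed by its log2 difference between hCT1 and control (horizontal axis) in the row of its list. Red points passed the limma test and carry their symbols, and black bars are medians. Of the 17 passing genes, 13 lie below 0, as did 1390 of the 2129 genes that passed among all 14506.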

How the data were processed

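RNA of 6 cardiomyocyte samples (3 hCT1, 3 control, grouped by the sample labels) was measured on 1-colour arrays. The authors made the deposited log2 values in Affymetrix Expression Console by RMA, which corrects background, equalises quantiles and condenses each probe set, with versions not given in the sources used here, and the values were used as deposited. RMA understates folds of dim probe sets, and no detection calls were used. The median log2 value over all genes still lay apart between groups, at 6.61 to 6.68 in controls and 6.55 to 6.56 with hCT1. Of 29215 probe sets, 15310 had 1 symbol and were tested, 323 had several and 13582 none in the platform annotation. All 68 symbols matched the RefSeq gene table of GRCr8 through their Entrez identifiers. No genome build is named for the array values, and the coordinates given are those of the RefSeq promoters.

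Groups were compared with limma 3.58.1 (lmFit, then eBayes, two-sided; R 4.3.3), and the robust alternative used statmod 1.5.0. Benjamini-Hochberg adjustment ran across the 15310 tested probe sets, and the threshold was 0.05. The step was tested on simulated data. The percentile of signal is the rank of a gene's mean among all 14506 genes. The members, roles and lists were chosen with earlier results of these data known. Genes are named if they passed, were among the 2 largest differences of a role, or were among 14 main chaperone and factor genes, and from the other lists as the 4 largest changes that passed (2 largest values where none did); all others named, among them Sec63 and Sdf2l1, were chosen after their values were seen. Alternatives were eBayes with trend and robust fitting, array weights, a one-way test, a filter at the 40th percentile of signal, all probe sets, another quantile normalization, median centring, the mean of a gene's probe sets, other thresholds, a replicate block and leaving out each sample.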

Additional observations from a re-analysis of the deposited data

How the results depend on the processing

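Hspb3 and Dnajc15 passed in all 18 alternatives tried. Dnajb11 and Hspb2 passed in 17, missing the adjusted one-way test, and Hspb1 in 17, missing the threshold of 0.01. The other 5 genes were less stable: Dnajc12 passed in 14, Hspa2 and Dnajb3 in 11 each, Hsf2bp in 9 of the 17 that tested it, and Dnajc4 in 7. The members' median difference lay between -0.018 and 0.028 in all alternatives. The share of higher probe sets among those called was 33.6%, 44.4% after another quantile normalization and 41% when centred on the array median.

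In place of 762 higher and 1506 lower probe sets over all those tested, there were 376 and 675 by the one-way test with adjustment, 1483 and 2467 without it, 435 and 899 with all probe sets adjusted together, and 296 and 563 at a threshold of 0.01. At 0.1, 1265 were higher. Leaving out 1 sample gave 417 to 873 higher and 803 to 1810 lower. Of the 68 genes, 6 rose and 4 fell. The one-way test gave 2 and 2 with adjustment, and 9 fell without it. All probe sets gave 3 rises, the threshold of 0.01 gave 1, and 7 fell above the 40th percentile of signal (58 genes tested) and at 0.1. Leaving out 1 sample gave 3 to 9 rises and 3 to 6 falls. For the other lists, with 4 rises and 13 falls, trend and robust fitting gave 8 rises. The one-way test gave 2 and 5 with adjustment, and 10 and 29 without. The threshold of 0.01 gave 1 and 6. Falls were 22 above the 40th percentile, 7 with all probe sets, 7 after another quantile normalization and 23 at 0.1. Leaving out 1 sample gave 3 to 6 rises and 6 to 15 falls. The cause of these moves was not tested, beyond the fewer or more samples, genes or calls that each setting makes by construction.

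Differences near 0 turned sign when 1 sample was left out: Hsp90aa1 ranged from -0.087 to 0.019, Hsp90ab1 from -0.021 to 0.029, Hspa9 from -0.017 to 0.090, Hspb7 from -0.061 to 0.0089, Hspb9 from -0.068 to 0.046, Dnajc3 from -0.060 to 0.049 and Dnajb1 from -0.054 to 0.061. Dnajb1 was also 0.011 with array weights, 0.042 after another quantile normalization and 0.017 when centred on the array median. Hspb9 and Dnajc3 were 0.019 and 0.0060 with array weights, and 0.0061 and 0.0032 when centred.

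Replicate numbers gave no clear pairing of the samples. The deviations of same-numbered samples correlated at -0.025, 0.046 and -0.285, and those of differently numbered samples at -0.180 to 0.206. With 3 samples a group these values cannot show whether samples were prepared in pairs. With the replicate block, 490 probe sets were higher and 1010 lower, 3 of the 68 genes rose and 3 fell, and 8 genes of the other lists fell.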
